A study of Mus musculus with 12 samples.

Results

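Lysosomal hydrolases are the acid enzymes that take apart glycolipids, glycoproteins and glycosaminoglycans inside the lysosome. They are made in the endoplasmic reticulum, carried to the lysosome mostly by mannose 6-phosphate receptors, and work at the low pH kept by the vacuolar proton pump (V-ATPase). Many of their genes are targets of the transcription factor TFEB. The 8 genes described here are Galc, Arsk, Arsa, Arsb, Hexa, Gla, Glb1 and Gusb. They were taken by name, with all their probes, and were chosen by the log2 ratios of the 4-week and control arrays, on which probes of Galc and Arsk stood out. The array carries 15 probes for them among 41174, and 14 of the 15 were among the 30455 probes kept after a filter on Cy5 signal.

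Gene expression was measured in whole forestomach, the squamous-lined part of the rodent stomach, of adult wild-type C57BL/6J mice. The first of 3 groups of 4 samples had 15% alcohol for 40 weeks, the second had 20% alcohol in supersaccharin solution for 4 weeks, and the controls had supersaccharin with 0% alcohol. The labels do not mention saccharin for the 40-week group, which has no controls of its own. Duration, alcohol strength, saccharin and any difference in age or array slide thus cannot be told apart in its comparisons. Every value is a log2 ratio of forestomach RNA over a commercial reference RNA pool, so 0 is a level equal to that of the pool, and levels of different probes cannot be set against each other.

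Squamous epithelium markers were present on every array. Their mean log2 ratio over 10 genes was 2.86 to 3.25 on 40-week arrays, 3.89 to 4.57 on 4-week arrays and 5.19 to 5.72 on control arrays. The mean over 10 macrophage markers, from cells rich in lysosomes, was 0.80 to 1.39 on 40-week arrays, 1.77 to 2.25 on 4-week arrays and 2.30 to 2.75 on control arrays. The columns of the 40-week group had a smaller spread, with a standard deviation over probes of 1.02 to 1.08 against 1.48 to 1.73 for the other 8 columns. After background subtraction, the Cy5 median ran from 40.08 to 104.0 units on 4-week arrays and from 106.5 to 141.8 units on control arrays. Some libraries stood apart. Glandular stomach genes averaged 3.18 on 4-week replicate 2 and 4.97 on control replicate 4, and pancreatic acinar genes averaged 6.69 on control replicate 3. On 40-week replicates 3 and 4 the Y-linked gene Ddx3y had log2 ratios of -4.26 and -4.02, against 0.49 to 1.49 on the other 10 arrays. Y-linked Eif2s3y stood at -5.67 and -6.28 there, against 2.61 to 3.17 on the others. Xist, from the X chromosome, stood at 0.63 and 0.11, against -2.25 to -0.82 on the others. The labels give no sex, but by these genes the arrays of replicates 3 and 4 differed in sex from the others. Sex is thus partly tied to the 40-week comparisons. In whole tissue, fewer cells of a type and less RNA per cell cannot be told apart.

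The probes of Galc and Arsk are shown first because probes of the same gene gave different values. Each line gives the first 30 of the 60 bases of a probe, from the scanner files.
Galc A_52_P174421: gtttctcattagtatgatttatgtaacatt
Galc A_51_P428683: gaagctgctcgctagtccacacggggcgtc
Galc A_52_P105197: gactattggtgatagagaatgccatcccgt
Arsk A_51_P472531: cagctgttggcattcccaccaataggtagc
Arsk A_52_P475080: ttggaccagaagcttcgttctattgtaaac
Gusb A_51_P211491: ttagttttttggccttggctttgtgaactc
On mouse build mm9, per the file headers, the 3 Galc probes lie on the minus strand at chr12:99441131-99441190, chr12:99442106-99442165 and chr12:99478918-99478977. The first pair is 975 bases apart, and the third lies 36812 bases from the nearer of them. Probe A_52_P174421 has a stop codon in each forward reading frame and 30% G and C over its whole length. The Arsk probes lie on the minus strand at chr13:76198809-76198868 (A_51_P472531) and chr13:76199926-76199985 (A_52_P475080), 1117 bases apart, and the Gusb probe lies at chr5:130465133-130465192. Exon and untranslated region of each probe were not analysed here, for want of an annotation of this build.

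Galc encodes galactosylceramidase, which removes galactose from galactosylceramide and psychosine and is lost in Krabbe disease. Its lead probe A_52_P174421 had deposited log2 ratios of -0.27, 0.11, -0.60 and -0.79 in 40-week samples, 0.51, 0.55, 0.32 and 0.25 in 4-week samples, and -1.23, -0.62, -0.79 and -0.79 in controls. All 4-week samples were above all others, and the 40-week samples overlapped the controls. In the scanner ratios the 4-week mean was 0.31 ± 0.14 and the control mean -0.60 ± 0.16 (SD, n = 4 each), a difference of 0.91 ± 0.12 (SE), or 1.88-fold. The difference lay in the forestomach channel, where Cy5 by itself differed by 0.91 ± 0.16 and Cy3 by 0.08 ± 0.15. These values were among those that chose the gene, so they are given with no test.

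The other Galc probes differed from it. Probe A_51_P428683 had log2 ratios of -0.50 to -0.24 in 40-week samples, -0.001 to 0.66 in 4-week samples and -0.69 to 0.07 in controls, with the 4-week and control ranges overlapping. Probe A_52_P105197 had its lowest mean at 4 weeks, with -0.64 to 0.05 in 40-week samples, -1.74 to -0.62 in 4-week samples and -1.71 to 0.02 in controls. Its 4-week and control ranges overlapped, and its 4-week difference from control was -0.187 ± 0.205 (SE) in the scanner ratios. This probe was dim, at 19.14 to 27.97 Cy5 units above background on 4-week arrays. Over the 12 samples, which share their arrays, Pearson r with the lead probe was 0.64 for the first and -0.47 for the second.

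Arsk encodes a sulfatase that acts on sulfated glucuronate residues of heparan and dermatan sulfate. Its probe A_52_P475080 had log2 ratios of -1.20, -1.43, -1.44 and -1.82 in 40-week samples, 0.09, 0.08, 0.18 and -0.46 in 4-week samples, and -1.91, -1.15, -1.18 and -1.19 in controls. The 4-week samples stood above both other groups with no overlap, and the 40-week samples lay within the control range. The 4-week difference from control was 1.07 ± 0.15 (SE) in the scanner ratios, or 2.09-fold, with 0.90 ± 0.18 in Cy5 and -0.16 ± 0.08 in Cy3.

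The brighter Arsk probe, A_51_P472531, ran the other way. It had log2 ratios of 2.91, 2.95, 3.02 and 2.41 in 40-week samples, 3.17, 3.05, 3.06 and 3.40 in 4-week samples, and 3.34, 3.81, 3.93 and 3.61 in controls. It was highest in controls, and the 4-week and control ranges touched through control replicate 1. The 4-week difference from control was -0.54 ± 0.18 (SE) in the scanner ratios. Over the 12 samples the correlation between the 2 Arsk probes was 0.06.

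**Figure D1:**
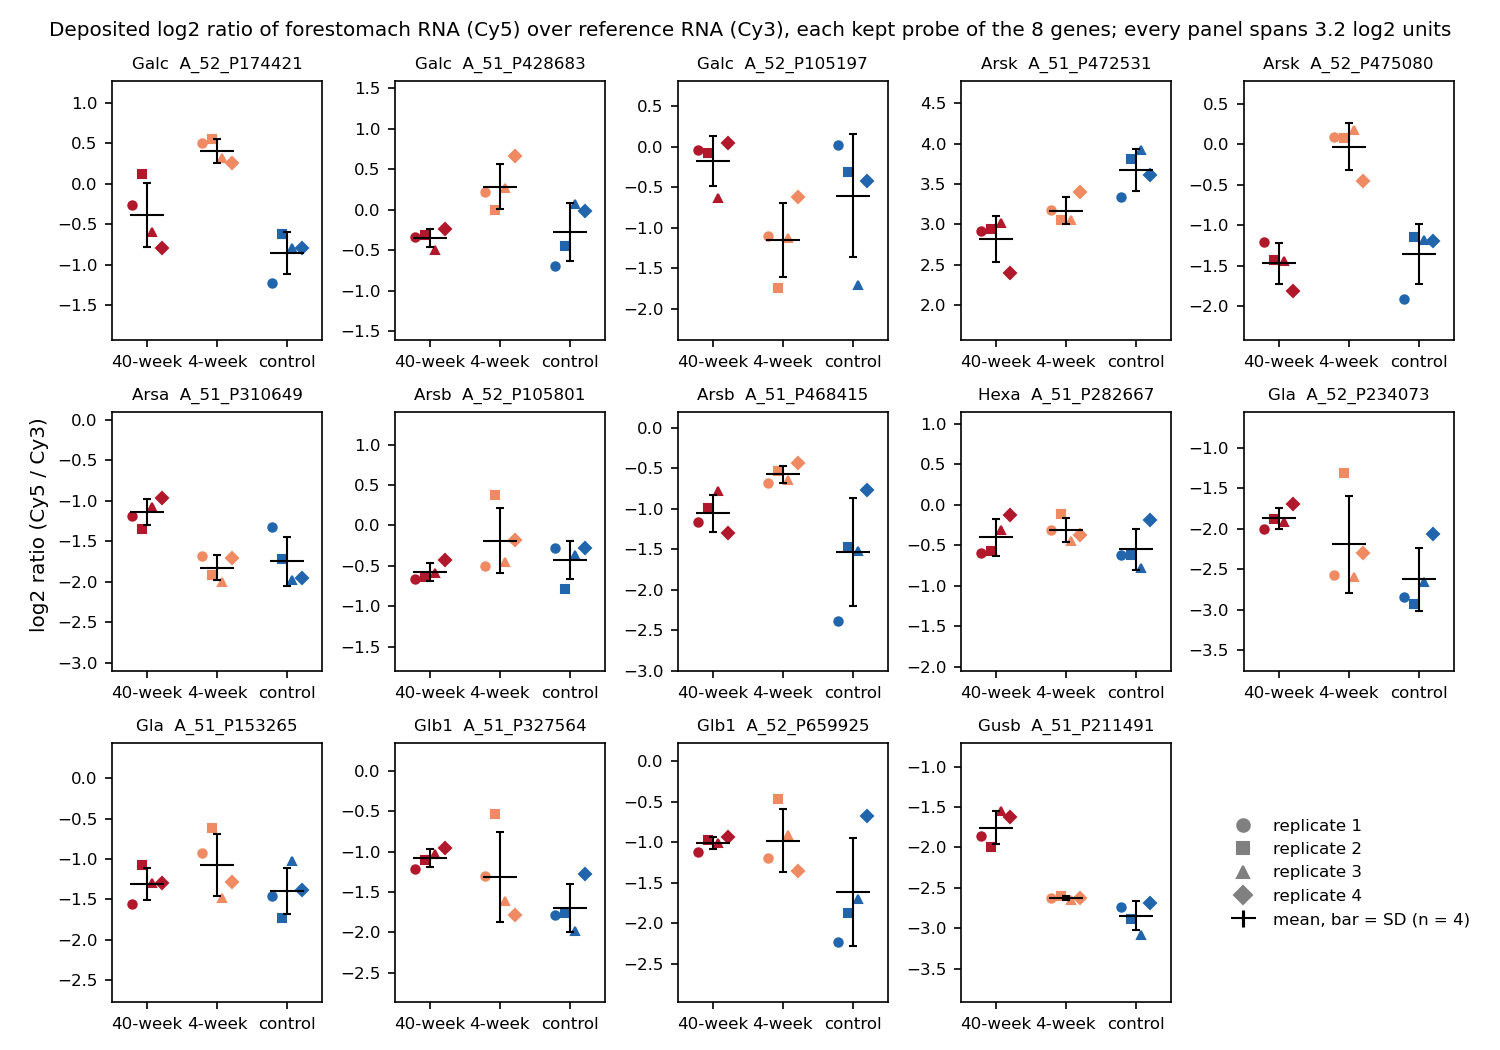
Deposited log2 ratios (vertical axis, Cy5 over Cy3) of the 14 kept probes in each sample, with 40-week samples left, 4-week samples in the middle and controls right; black bars are the mean and SD of 4 samples, and every panel spans 3.2 log2 units. The 4-week samples of Galc A_52_P174421 (0.25 to 0.55) and Arsk A_52_P475080 (-0.46 to 0.18) sit above the other groups, while those of Gusb sit between -2.65 and -2.60.

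Counted over all 14 kept probes, 2 were called in 4 weeks against control, both higher, where 0.755% of all kept probes were called. With no overlap between groups, 4 of the 14 probes were higher at 4 weeks, against 5.85% of all kept probes. The 4 are Galc A_52_P174421, Arsk A_52_P475080, Arsb A_51_P468415 and Gusb. The median difference was 0.35 over the 14 probes and -0.01 over all kept probes. With either channel by itself 0 of the 14 were called, where 0.197% of all kept probes were called in Cy5 and 7.19% in Cy3 with limma. At an unadjusted p under 0.05 the counts were 4 of the 14 in Cy5, against 15.9% of all kept probes, and 2 of the 14 in Cy3, against 26.4%. When any 1 of the 8 arrays was left out, 0 of the 14 were called, where 0 to 22 of all kept probes were called in place of 230. The difference then ran from 0.84 to 0.96 for Galc A_52_P174421 and from 0.96 to 1.17 for Arsk A_52_P475080. Nothing is read from any of these counts, medians and differences, since this comparison chose the genes.

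**Figure D2:**
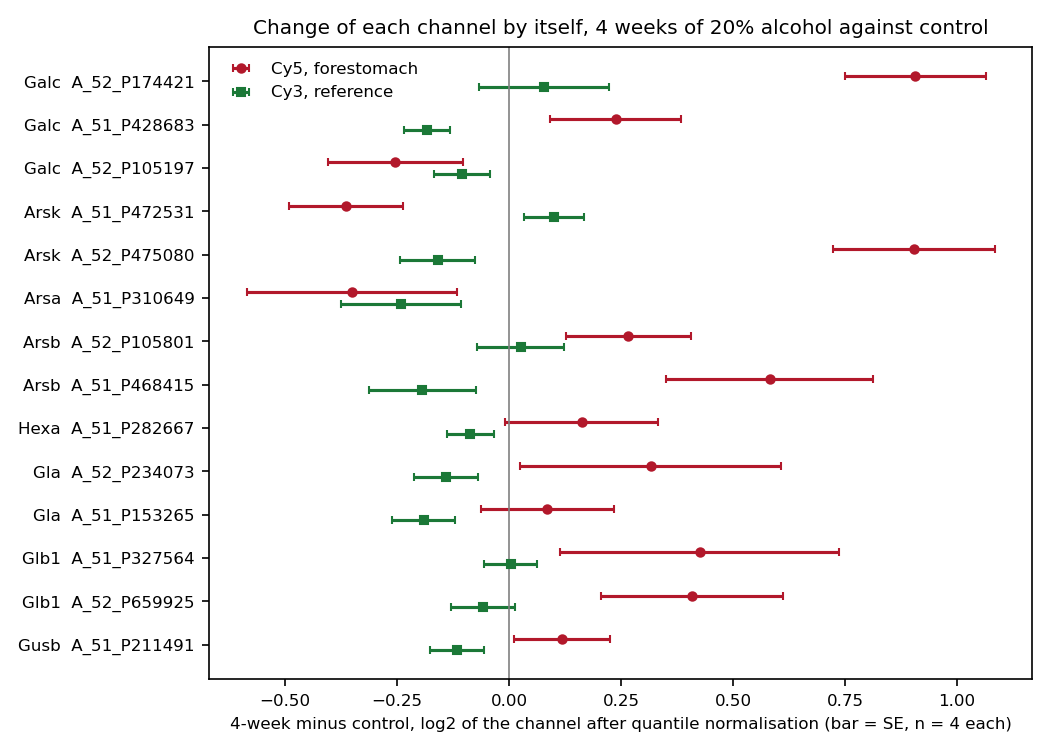
Difference between 4-week and control arrays in each channel by itself (horizontal axis, log2 units after quantile normalisation; bars are SE, n = 4 each), with forestomach Cy5 as circles and reference Cy3 as squares. Galc A_52_P174421 and Arsk A_52_P475080 stand near 0.9 in Cy5, and the Cy3 differences of the 14 probes run from -0.24 to 0.10.

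Arsb encodes arylsulfatase B, which removes sulfate from dermatan and chondroitin sulfate. Its lead probe A_52_P105801 (chr13:94710818-94710877) had log2 ratios of -0.66 to -0.42 in 40-week samples, -0.50 to 0.37 in 4-week samples and -0.78 to -0.28 in controls, and the groups overlapped. Probe A_51_P468415 (chr13:94712040-94712099) had -1.30 to -0.77 in 40-week samples, -0.68 to -0.44 in 4-week samples and -2.38 to -0.76 in controls. Its 4-week samples were all above the controls, with a scanner difference of 0.74 ± 0.21 (SE). The third probe, A_52_P339806, was not well above background in Cy5 on any of the 8 arrays with scanner files, so it was not tested.

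Among the 14 probes as deposited, Gusb showed the largest difference between 40 weeks and control. Gusb encodes beta-glucuronidase, which takes glucuronate off glycosaminoglycans and is often used as a reference gene in expression work. Its log2 ratios were -1.86, -1.99, -1.55 and -1.62 in 40-week samples, -2.62, -2.60, -2.65 and -2.63 in 4-week samples, and -2.73, -2.89, -3.08 and -2.68 in controls. The 40-week samples were above all others, and the 4-week samples lay within 0.05 of each other. The array carries 10 spots of this probe, whose log2 ratios had an SD between spots of 0.085 to 0.244 on the 8 arrays with scanner files. Gusb rose by 1.09 ± 0.13 (SE) at 40 weeks against control, or 2.13-fold, with an adjusted p of 7.01e-05 from limma. The control and 4-week arrays chose all 8 genes and serve in the 40-week comparisons. The adjusted p-values of the 8 genes, here and below, are thus descriptions only. With all columns scaled to one spread the difference was 0.25 with an adjusted p of 0.175 from limma, so the call depended on the scale of the 40-week columns. Without 40-week replicates 3 and 4 it was 0.92, with an adjusted p of 0.00312 from limma.

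Arsa encodes arylsulfatase A, which hydrolyses sulfatide and is lost in metachromatic leukodystrophy. Its single probe (chr15:89303066-89303125) had log2 ratios of -1.19, -1.34, -1.08 and -0.97 in 40-week samples, -1.68, -1.92, -2.0 and -1.71 in 4-week samples, and -1.32, -1.72, -1.98 and -1.96 in controls. The 40-week samples were above all 4-week samples and overlapped the controls only through control replicate 1. Arsa rose by 0.60 ± 0.16 (SE) against control, or 1.52-fold, with an adjusted p of 0.0107 from limma. The call was lost when columns were scaled to one spread, with a difference of 0.06 and an adjusted p of 0.767 from limma. It was also lost without 40-week replicates 3 and 4, at 0.48, and without the 3 arrays rich in other organs' transcripts, at 0.38.

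Gla encodes alpha-galactosidase A, the enzyme lost in Fabry disease, which removes galactose from globotriaosylceramide. Its lead probe A_52_P234073 (chrX:131124444-131124503) had log2 ratios of -2.002, -1.87, -1.92 and -1.69 in 40-week samples, -2.57, -1.31, -2.59 and -2.30 in 4-week samples, and -2.85, -2.93, -2.66 and -2.07 in controls. The 40-week samples lay close together and above all controls, while 1 sample in each of the other groups stood high. Gla rose by 0.76 ± 0.27 (SE) against control with an adjusted p of 0.0427 from limma. With columns scaled to one spread the sign turned, with -0.09, and the call was lost under 10 of the 18 alternatives. The second probe, A_51_P153265 (chrX:131123220-131123278), differed by 0.09 ± 0.21 (SE) with an adjusted p of 0.744 from limma, and by -0.43 after scaling.

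Glb1 encodes beta-galactosidase, the enzyme behind the common senescence stain. Its lead probe A_51_P327564 (chr9:114383136-114383195) had log2 ratios of -1.21, -1.10, -1.03 and -0.95 in 40-week samples, -1.30, -0.53, -1.62 and -1.79 in 4-week samples, and -1.79, -1.76, -1.98 and -1.28 in controls. The 40-week samples did not overlap the controls, yet the difference of 0.63 ± 0.24 (SE) did not pass, with an adjusted p of 0.057 from limma. With columns scaled to one spread it was 0.11, with an adjusted p of 0.716 from limma. The second probe A_52_P659925, whose target spans chr9:114347059-114352145, differed by 0.61 ± 0.29 (SE), or 0.13 after scaling, and had a correlation of 0.79 with the first over the 12 samples.

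Hexa encodes the alpha subunit of beta-hexosaminidase A, lost in Tay-Sachs disease. Its probe (chr9:59411712-59411771) had log2 ratios of -0.60 to -0.13 in 40-week samples, -0.45 to -0.11 in 4-week samples and -0.78 to -0.19 in controls. The 3 groups overlapped, and the difference of 0.15 ± 0.16 (SE) at 40 weeks against control had an adjusted p of 0.479 from limma.

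In the 40-week comparison with control, 4 of the 14 probes were called, where 42.2% of all kept probes were called. The 3 called higher were Gusb, Arsa and Gla A_52_P234073. The 1 called lower was Arsk A_51_P472531, at -0.85 ± 0.17 (SE), and its sign turned after scaling, to 0.40. The share called was no larger than the background. Of the 14 probes, 11 moved toward a ratio of 1, as did 77.6% of all kept probes. With columns scaled to one spread 1 of the 14 was called, Arsk A_52_P475080 at -0.69, where 38.0% of all kept probes were called. All 8 genes were chosen on values that include the controls, so these calls are descriptions only. The Arsk values are given with no test, since probes of Arsk stood out in that choice.

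**Figure D3:**
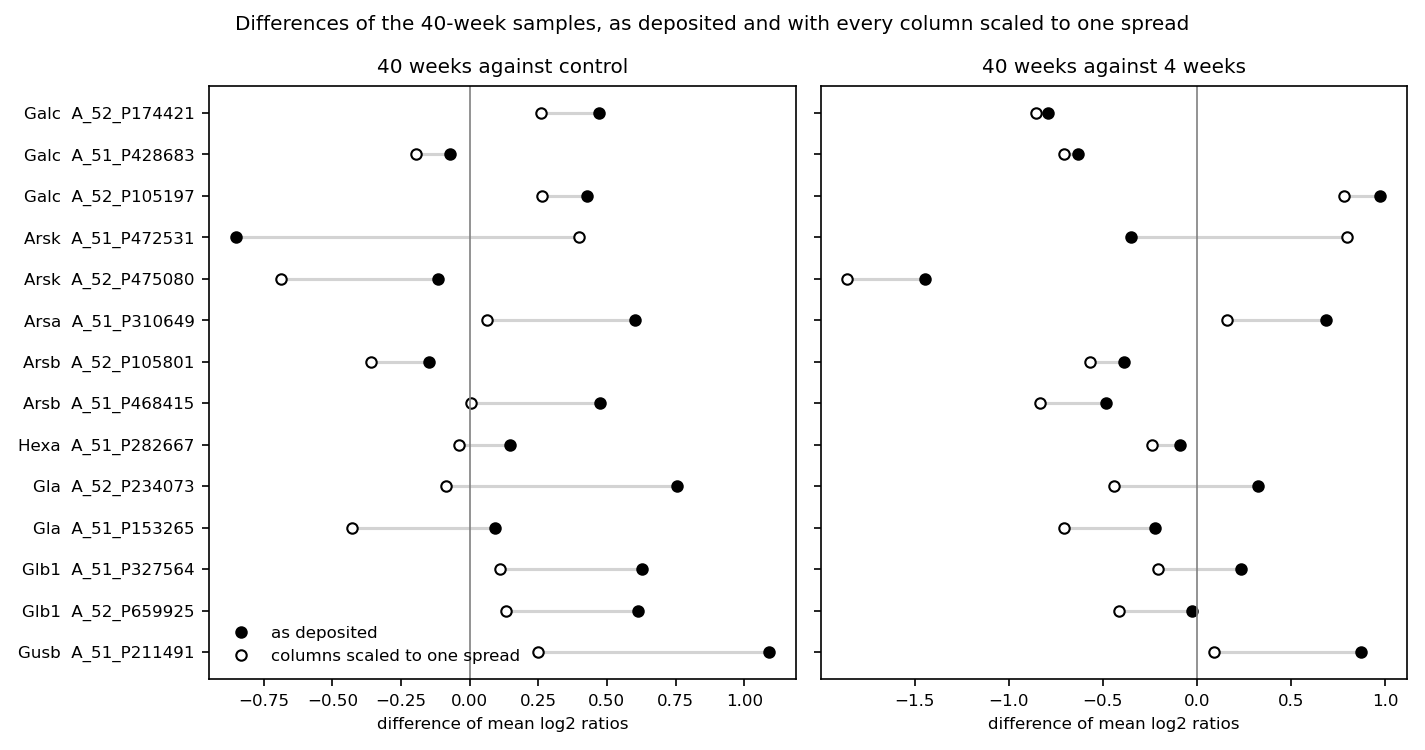
Differences of mean log2 ratios (horizontal axis) for the 14 kept probes, 40 weeks against control left and 40 weeks against 4 weeks right; filled circles are the values as deposited and open circles those with every column scaled to one spread. Gusb moves from 1.09 to 0.25 against control and Arsk A_51_P472531 crosses 0, while Arsk A_52_P475080 stays below -1.4 against 4 weeks.

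The 4-week samples are among the arrays on which the 8 genes were chosen. Set against them, 6 of the 14 probes were called at 40 weeks, 3 in each direction, where 43.0% of all kept probes were called. Arsk A_52_P475080 was lower by the largest amount, with a difference of -1.45 ± 0.21 (SE), and this ran from -1.86 to -1.29 over 18 alternatives. Galc A_52_P174421 differed by -0.79 ± 0.20 (SE), Galc A_51_P428683 by -0.63 ± 0.19 (SE) and Galc A_52_P105197 by 0.97 ± 0.34 (SE). The 40-week and 4-week ranges of the last overlapped, and its call was lost under 9 of the 18 alternatives. Since probes of Galc and Arsk stood out on the 4-week values, these 4 are descriptions with no test. Arsa rose by 0.69 ± 0.16 (SE) with an adjusted p of 0.00518 from limma, and Gusb by 0.87 ± 0.13 (SE) with an adjusted p of 0.000437 from limma. After scaling to one spread Arsa differed by 0.16 and Gusb by 0.09, and neither passed. The adjusted p-values of Arsa and Gusb are descriptions too, given how the genes were chosen.

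In the 4-week group and in the controls, the 1 array richest in glandular stomach transcripts also held the highest values of several of these probes. This was not so for the next richest control or among the 40-week arrays. The mean over the 8 measured of 10 glandular genes was 1.61 to 2.11 on 40-week arrays, 1.09 to 3.18 on 4-week arrays and 0.37 to 4.97 on control arrays. Control replicate 4 was the highest control for 7 of the 14 probes, where it was highest for 24.0% of all kept probes. Control replicate 3, next among controls with a glandular mean of 3.08, was highest for 3, against 30.3%. It held the lowest control value of Arsa, Hexa, Gusb, Glb1 A_51_P327564 and Galc A_52_P105197. The 4-week replicate 2 was the highest 4-week sample for 8 of the 14, against 23.9%. Of the 40-week arrays, replicate 4 was highest for 8 of the 14, against 35.2% of all kept probes, with a glandular mean of 1.88, and replicate 1, with the highest glandular mean of 2.11, was highest for 1. Glb1 A_51_P327564 stood at -0.53 on that 4-week array, against -1.79 to -1.30 on the other 4-week arrays. Without control replicate 4, the probe passed at 40 weeks against control with 0.77 and an adjusted p of 0.0326 from limma. The part of glandular stomach RNA in these results was not tested.

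**Figure D4:**
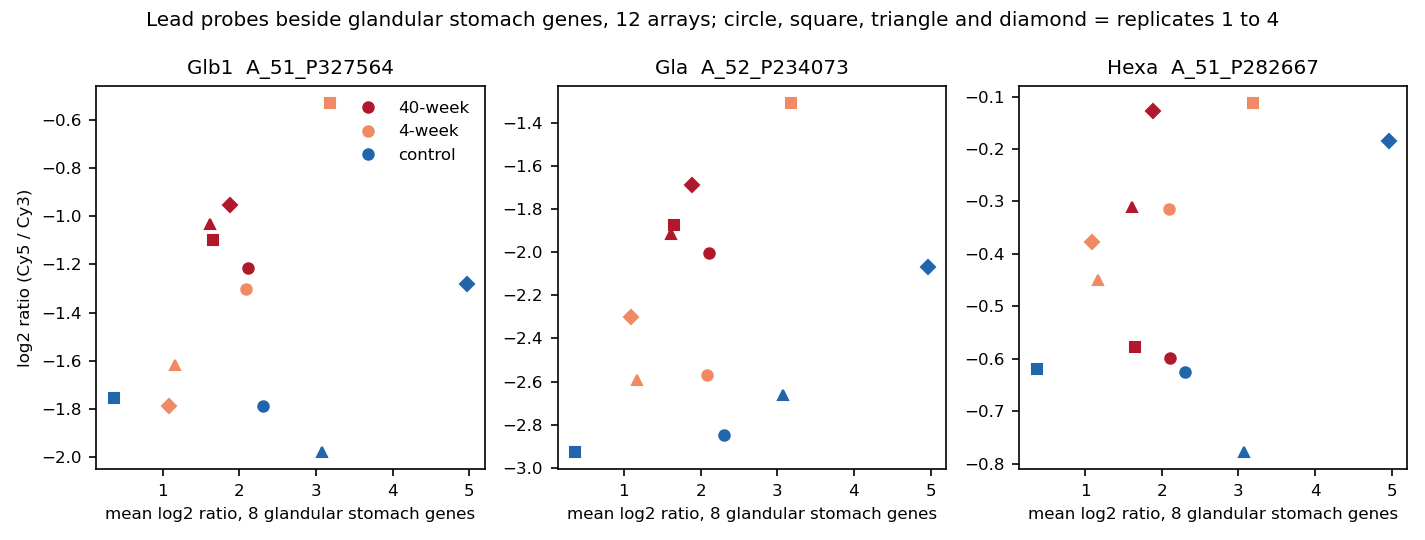
Log2 ratio of the lead probes of Glb1, Gla and Hexa (vertical axis) against the mean log2 ratio of 8 glandular stomach genes (horizontal axis) on the 12 arrays, coloured by group. The 4-week array at 3.18 and the control array at 4.97 on the horizontal axis hold the highest value of their group in each panel. Among lead probes not shown, this held on both arrays for Arsb and Gusb, but not on both for Galc, Arsk and Arsa.

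Promoters of 3 of the 8 genes hold the letters CACGTG within 250 bases before to 50 after the start site, which are the core of the element bound by TFEB. Of these genes, Gla and Arsa had a probe called at 40 weeks against control and Glb1 did not. Gusb and Arsk also had a called probe there, but their promoters hold no CACGTG. The calls of Gla and Arsa were lost after scaling, and a link between the element and the values was not tested. The sequences are RefSeq's on GRCm38.p6, written 5′ to 3′ along the gene with CACGTG in capitals.
Gla, chrX:134601136-134601255, minus strand: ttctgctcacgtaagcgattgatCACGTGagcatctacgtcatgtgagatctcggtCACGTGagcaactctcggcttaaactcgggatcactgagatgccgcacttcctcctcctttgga
Glb1, chr9:114401003-114401062, plus strand: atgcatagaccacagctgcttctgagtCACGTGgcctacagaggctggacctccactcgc
Arsa, chr15:89477425-89477467, minus strand: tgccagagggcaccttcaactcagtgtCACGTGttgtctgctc
The match starts 227 and 194 bases before the start site in Gla, 48 bases before it in Glb1 and 16 bases before it in Arsa. CACGTG reads the same on both strands, and the longer GTCACGTG, which contains it, was searched on both. All 8 promoters were in the table. CACGTG was in 3 of them, in 23.3% of promoters of other lysosomal genes on the lists and in 7.15% of all 32851 promoters. GTCACGTG was in the same 3, in 17.5% of those of other lysosomal genes and in 2.25% of all.

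The other lysosomal genes were read from 7 lists with 102 genes, all measured by 1 probe each. At 4 weeks against control 0 of the 102 were called by limma, where 0.755% of all kept probes were called, and the median difference was 0.15. At an unadjusted p under 0.05 there were 16 of the 102, against 17.8% of all kept probes. By sign, 70 of the 102 differences were positive, against 48.5% of all kept probes. With no overlap between groups 9 were higher and 2 lower, against 5.85% of all kept probes each way.

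At 40 weeks against control 38 of the 102 were called, 19 higher and 19 lower, where 18.1% of all kept probes were called higher and 24.2% lower. After scaling to one spread 31 were called, 21 of them higher, where 38.0% of all kept probes were called. The split of that 38.0% by direction is not given here, so no pattern is read from the scaled directions. Among other hydrolases 10 rose and 4 fell of 32, and after scaling 7 were called higher and 1 lower. Man2b2, an alpha-mannosidase, rose by 0.99 and Pla2g15, the lysosomal phospholipase, by 0.72, and both also passed after scaling, at 0.74 and 0.46. Arsg, a heparan sulfate sulfatase, rose by 0.95, and Acp5, tartrate-resistant acid phosphatase of osteoclasts and macrophages, fell by 1.37, but neither passed after scaling. Idua, alpha-iduronidase, fell by 0.64 and did not pass after scaling. Smpd1, acid sphingomyelinase, fell by 0.67 and its sign turned after scaling, to 0.44.

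Lysosomal proteases went both ways, with 3 called higher and 5 lower of 16, where 18.1% of all kept probes were called higher and 24.2% lower. After scaling the balance turned, to 4 higher and 2 lower, where 38.0% of all kept probes were called in either direction. Ctsz rose by 1.54 and Ctsa, the protective protein that stabilises beta-galactosidase, by 0.99, and both passed after scaling. Ctsz had log2 ratios of -0.84, -0.79, -0.61 and -0.54 in 40-week samples, -1.96, -1.79, -1.995 and -1.97 in 4-week samples, and -2.06, -2.49, -2.48 and -1.90 in controls, with the 40-week samples above all others. Ctsd, the aspartic protease cathepsin D, rose by 0.42 and passed after scaling. Ctsh fell by 1.30 and Ctsc by 0.85, but after scaling their differences were -0.13 and -0.15 and did not pass. Ctss, the cathepsin of antigen-presenting cells, fell by 0.92 and passed after scaling, at -1.35. Macrophage markers were also lower on the 40-week arrays as deposited, but so were markers of squamous epithelium and smooth muscle. Marker means after scaling are not given here, and the part of macrophages in the fall of Ctss was not tested.

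Of 7 activators and maturation factors 2 rose and 2 fell, where 18.1% of all kept probes were called higher and 24.2% lower. After scaling 4 were called higher and 0 lower, where 38.0% of all kept probes were called in either direction. Psap, the precursor of the saposins that present glycolipids to Galc, Arsa and Gla, rose by 0.91 and Glmp by 0.47, and both passed after scaling. Gm2a, the activator used by hexosaminidase A, fell by 0.97 and Sumf2 by 0.51, and neither passed after scaling. Psap had log2 ratios of -0.24, -0.08, -0.07 and 0.001 in 40-week samples, -0.66, -0.80, -0.65 and -0.45 in 4-week samples, and -0.89, -1.04, -1.02 and -1.08 in controls, and the 3 groups did not overlap.

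Sorting genes gave 2 higher and 2 lower of 10, where 18.1% of all kept probes were called higher and 24.2% lower. The counts were the same after scaling, where 38.0% of all kept probes were called in either direction. Gnptab, a subunit of the enzyme that makes the mannose 6-phosphate tag, rose by 0.88 and passed after scaling at 0.95, as did Gga3, an adaptor for sorting receptors, which rose by 0.54. M6pr, a mannose 6-phosphate receptor, fell by 0.33 and passed after scaling. Sort1, another sorting receptor, fell by 1.28, but its sign turned after scaling, to 0.37. Of 16 membrane genes Mcoln1, the lysosomal calcium channel, rose by 0.63 and Pip4p1 fell by 0.60, and both passed after scaling.

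Of 17 V-ATPase subunits, 4 were called lower and 1 higher at 40 weeks against control, and 9 lower and 1 higher at 40 weeks against 4 weeks. Of all kept probes 24.2% were called lower and 18.1% higher in the first comparison, and 24.7% lower and 18.3% higher in the second. After scaling, 2 subunits were called lower and 1 higher against control, and 5 lower and 1 higher against 4 weeks. Of all kept probes 38.0% and 40.5% were then called, in either direction. The median difference of the 17 was -0.31 in the first comparison and -0.54 in the second. Over all kept probes the medians were -0.10 and -0.10. After scaling, the medians of the 17 subunits were -0.02 and -0.31, where those of all kept probes were -0.07 and -0.06. Atp6v1g1 fell by 0.99 against control and 0.81 against 4 weeks, and passed in both after scaling. Atp6v1c1 fell by 0.68 against control and Atp6v0e by 0.58, of which the first passed after scaling. Against 4 weeks Atp6v0a1 fell by 0.97 and Atp6v0d1 by 0.82, of which the second passed after scaling. Tcirg1, the pump subunit known from osteoclasts, rose by 1.31 against control and passed after scaling, at 0.77.

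Against 4 weeks, 40 of the 102 genes were called at 40 weeks, 13 higher and 27 lower, where 18.3% of all kept probes were called higher and 24.7% lower. Of the 4 transcription factors of the TFEB family, Tfeb fell by 0.64 against 4 weeks and Tfec by 1.12, and both passed after scaling. Tfec also fell by 1.03 against control and passed after scaling, at -0.85. Tfeb differed from control by -0.34 and was not called as deposited, but passed after scaling, at -0.42. Tfeb had log2 ratios of -0.31, -0.27, -0.35 and -0.43 in 40-week samples, 0.50, 0.22, 0.10 and 0.36 in 4-week samples, and -0.19, -0.24, 0.19 and 0.22 in controls. Against 4 weeks Lipa, the acid lipase, rose by 0.73 and Hpse, heparanase, fell by 0.67. Neither passed after scaling, where the sign of Hpse turned, to 0.08. Ctsk fell by 0.91 and did not pass after scaling. Sumf1, which activates the sulfatases Arsk, Arsa and Arsb, rose by 0.42 and passed after scaling at 0.51. Gga1 fell by 0.74 and passed after scaling, and Nagpa, which uncovers the mannose 6-phosphate tag, fell by 0.61 and did not. Among membrane genes Tmem192 fell by 0.59 and Laptm4b by 0.42, of which the first passed after scaling.

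**Figure D5:**
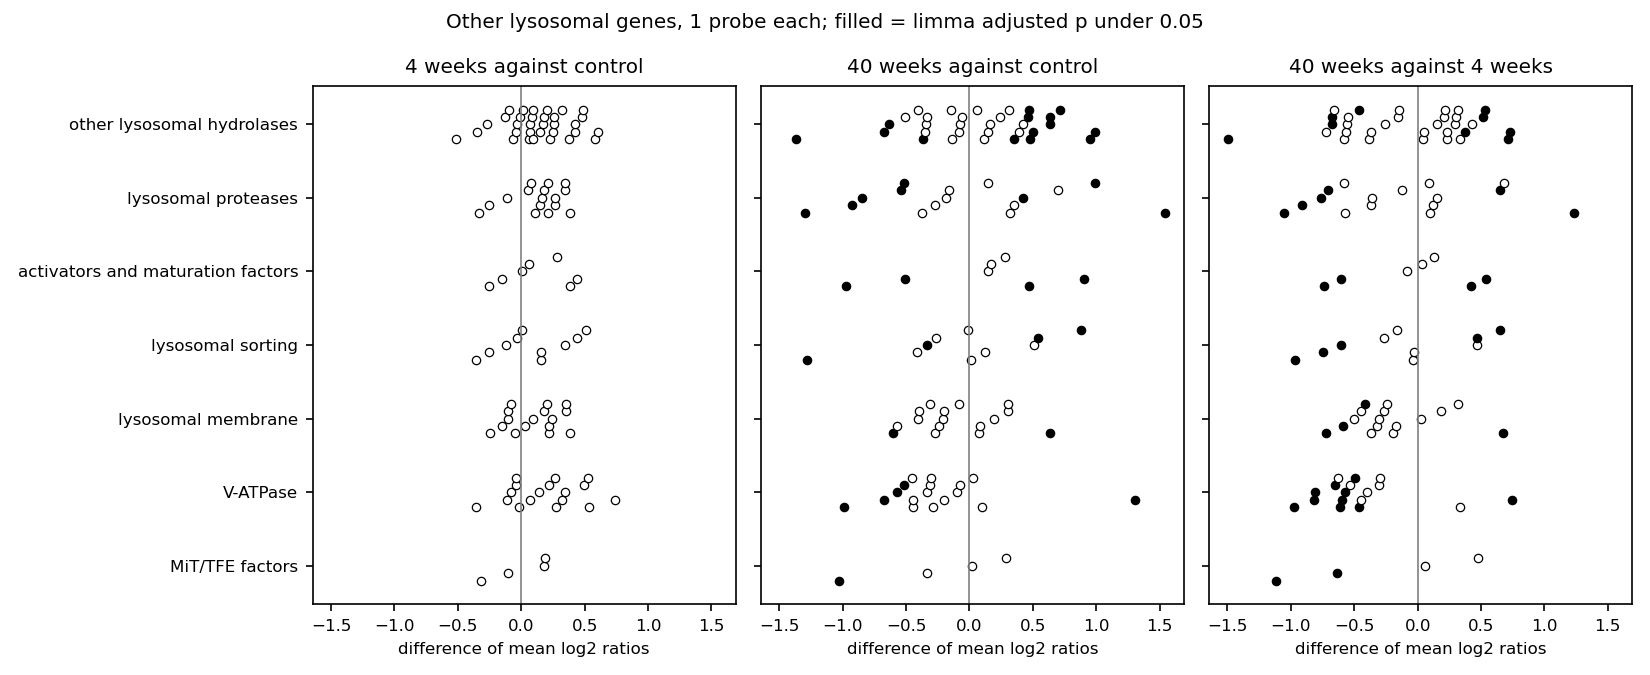
Differences of mean log2 ratios (horizontal axis) of 102 other lysosomal genes, 1 point a gene in rows by list, for 3 comparisons as titled; filled points passed the limma test at an adjusted p under 0.05. No point is filled at 4 weeks against control, and the V-ATPase row at 40 weeks against 4 weeks has 9 filled points below 0 and 1 above.

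The genes most like the lead probes over the 12 samples were found among the lead probes of 17417 other genes. Closest to Galc A_52_P174421 were Spata6 with a Pearson r of 0.94, Gpkow with 0.93 and Wdr36 with 0.92. Their 4-week differences from control were 0.66, 0.96 and 0.72 in the deposited table. Closest to Arsk A_51_P472531 were Zfp654 with 0.95, Olfr672 with 0.93 and Cd207, the Langerhans cell lectin, with 0.93. The 12 points share their groups and arrays, and these values are a description.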

How the data were processed

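Per the labels, RNA from whole forestomach of adult C57BL/6J mice went onto 12 Agilent arrays of the two-colour kind, with the sample in Cy5 and Agilent's Universal Mouse Reference RNA in Cy3 on every array, so that no dye swap balanced the channels. Groups and replicate numbers were read from the sample titles, which do not say that replicates were separate animals. P-values therefore rest only on sample-to-sample spread, part of which may be technical.

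For the 8 control and 4-week arrays, the deposited scanner files give linear spot and background intensity, with processed log10 ratios and other values of 0 or 1 that flag spots, per the file headers. The headers name Feature Extraction 10.7.3.1, while the submitters' processing notes name version 9.1. A deposited value table gives a log2 ratio, sample over pool, for all 12 arrays. Scale and direction were settled on the 8 arrays with scanner files, where Pearson r with the raw log2 ratio was 0.992 to 0.996. The making of the 40-week columns has no such check. All controls shared one slide and all 4-week arrays another, so slide and group cannot be told apart.

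Scanner signals were corrected with normexp (offset 50) and normalised by loess, with control and outlier spots left out, and spots of one probe were averaged. Of 41174 probes, 30455 were kept, each with Cy5 well above background on at least 3 of 4 arrays of a group with scanner files. limma 3.58.1 in R 4.3.3 (lmFit and eBayes) was fitted to the scanner ratios for 4 weeks against control and to the value table, with 3 groups, for the 40-week comparisons, and p-values were adjusted by Benjamini-Hochberg over all kept probes. A probe was called at an adjusted p under 0.05. Each channel was also fitted by itself after quantile normalisation. The lead probe of a gene is its kept probe with the brightest Cy5. The text names every probe of the 8 genes, and from each other list up to 3 called genes of largest rise and of largest fall per comparison. For likeness, it names the 3 genes closest to the lead probes of Galc and Arsk. Members and lists were chosen with earlier results of these data known. The code was tested on simulated data. Gene names came from the accession for 26918 probes, the symbol for 5082 and a synonym for 826. For 1431 more the file's own name was used, and 6917 were unnamed. Alternatives covered background correction, normalisation, scaling, filters, array weights, a replicate block and left-out arrays. Replicate numbers were not taken to pair the samples, which the titles do not state. Correlations of same-numbered deviations ran from -0.413 to 0.416 between 4-week and control arrays. They ran from 0.079 to 0.196 between 40-week and control arrays, and from -0.183 to 0.189 between 40-week and 4-week arrays.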

Additional observations from a re-analysis of the deposited data

Results flagged for a closer look

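Among 45 groups of 4 samples, 3 held a sample far from the others by Dixon's criterion, where chance gives about 1 in 20. The Arsk probe A_51_P472531 stood at 2.41 on 40-week replicate 4, against 2.91 to 3.02 on the other 40-week arrays. The Arsk probe A_52_P475080 stood at -0.46 on 4-week replicate 4, against 0.08 to 0.18 on the others, and at -1.91 on control replicate 1, against -1.19 to -1.15 on the others. Cy5 signal was lowest on 4-week replicate 4, with a median of 40.08 above background, and the part of this in the value was not tested.

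The 40-week and 4-week differences from control were unlike for Arsa and Gusb, which were called by limma at 40 weeks against 4 weeks. The 40-week difference minus the 4-week difference was 0.69 for Arsa and 0.87 for Gusb, and neither passed with columns scaled to one spread. It was -0.79 for Galc A_52_P174421, -0.63 for Galc A_51_P428683, 0.97 for Galc A_52_P105197 and -1.45 for Arsk A_52_P475080. These 4 are given with no test, since probes of Galc and Arsk stood out on the 4-week values. The values of Arsa and Gusb are descriptions too, since the 4-week arrays were among those that chose all 8 genes.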

How the results depend on the processing

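For 4 weeks against control, 2 of the 14 probes were called. The count was 3 without background correction, 1 of them lower, where 610 of all kept probes were called. It was 1 with a normexp offset of 16, where 35 of all kept probes were called. It was 0 with median centring, with arrays scaled to one spread, with the value table of the 8 arrays and with a replicate block, where 0 of all kept probes were called. It was also 0 without the 3 arrays rich in other organs' transcripts, and in Cy5 or Cy3 alone, where 390, 60 and 2190 of all kept probes were called. The count was 0 to 0 when each array was left out in turn, where 0 to 22 of all kept probes were called. In Cy3 alone Arsk A_52_P475080 turned sign, to -0.16. Of the 102 other lysosomal genes 1 was called with array weights, where 728 of all kept probes were called. In Cy3 alone 3 of the 102 were called, against 7.19% of all kept probes.

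For 40 weeks against control, scaling to one spread left 1 call of the 14 and turned 4 probes, with 0.40 for Arsk A_51_P472531, -0.038 for Hexa, -0.088 for Gla A_52_P234073 and -0.43 for Gla A_51_P153265. Leaving out 1 array gave 3 to 7 calls of the 14 and 25 to 42 of the 102, with the 25 without control replicate 3. Of all kept probes 42.2% were called as deposited and 38.0% after scaling, and the shares with arrays left out are not given here. Without 40-week replicates 3 and 4, 19 of the 102 were called, and Arsk A_52_P475080 turned to 0.039 and Hexa to -0.036. Without the 3 arrays rich in other organs' transcripts, Galc A_51_P428683 turned to 0.23, Galc A_52_P105197 to -0.029 and Arsk A_52_P475080 to 0.056. With 1 array left out, Galc A_51_P428683 ran from -0.21 to 0.042 and Gla A_51_P153265 from -0.018 to 0.22.

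For 40 weeks against 4 weeks, 2 of the 14 and 19 of the 102 were called without 40-week replicates 3 and 4. Scaling called 7 of the 14, 1 of them higher, and turned Arsk A_51_P472531 to 0.80, Gla A_52_P234073 to -0.44 and Glb1 A_51_P327564 to -0.21. Glb1 A_52_P659925 was 0.007 with array weights, 0.15 without the 3 arrays rich in other organs' transcripts and -0.15 to 0.15 with 1 array left out. Leaving out 1 array gave 5 to 7 calls of the 14 and 28 to 44 of the 102. For this comparison 43.0% of all kept probes were called as deposited and 40.5% after scaling. The shares with arrays left out are not given here. Scaling removes the smaller spread of the 40-week columns whatever its origin, so it is no test of a cause. The cause of the changes under the alternatives was not tested.

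With a replicate block, 4 of the 14 were called at 40 weeks against control and 6 at 40 weeks against 4 weeks, as without it. The labels do not say that the numbers pair the samples, and the share of all kept probes called with the block is not given here. The number of arrays limits the precision, and dim probes such as Galc A_52_P105197, at 19.14 to 27.97 Cy5 units above background on 4-week arrays, are read close to background.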
